A study of Mus musculus with 12 samples.

Results

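The cytotoxic granule genes measured here were Gzma, Gzmb, Gzmk, Prf1, Nkg7, Srgn, Serpinb9, Serpinb6b, Lamp1 and Ctsw, 10 of the 41457 genes listed for each library of splenic regulatory T cells (Treg). They were chosen by name, with earlier results of these data known. They were taken as genes of the granules through which killer lymphocytes, and some Treg, deliver death-inducing proteases. Each of the 10 had reads in at least 1 library. Cytotoxic granules are modified lysosomes. Perforin, encoded by Prf1, opens the membrane of the target cell, and granzymes, which are serine proteases, pass through and cleave proteins inside it. The proteoglycan serglycin (Srgn) packs these proteases in the granule, LAMP1 lies in the granule membrane, NKG7 is a granule protein that takes part in degranulation, and serpins of clade B in the cytosol protect the killer cell from its own proteases. Ctsw encodes cathepsin W, a cysteine protease expressed in cytotoxic lymphocytes. Granzyme B has been described as an effector molecule of activated Treg.

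The series asked what the loss of CD18, the β chain of the β2-integrins encoded by Itgb2, does to the RNA of Treg. The 12 libraries formed 4 groups of 3. CD18Foxp3 Treg came from mice in which Cre, driven by Foxp3, removed a floxed exon of Itgb2, and CD18wt Treg came from littermates that also carried the Foxp3-driven Cre, so that both genotypes shared the Cre and a red fluorescent reporter (RFP). Cells were sorted as positive for RFP and CD4, a gate that leaves out cells without CD4. All cells were kept overnight in 5 U/ml recombinant human IL-2 (unstimulated), and the stimulated groups also received 1 µg/ml anti-CD3 and 2 µg/ml anti-CD28, antibodies that trigger the T cell receptor and its costimulatory receptor. Mice were matched for age and sex, and their age is not given in the sources used here. In the mice the deletion covered all cells that express Foxp3, so that an effect inside the sorted cell and one of the donor animal's condition cannot be told apart. Each of the 3 replicates of a group stands for 1 mouse, going by the study's own description of its RNA data, and the unstimulated and stimulated cultures were run side by side. The sources used here do not say which unstimulated and stimulated libraries share a mouse.

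Libraries held 10665174 to 19005482 exon reads. Itgb2, the targeted gene, lay at 329 to 465 TPM (reads scaled to transcript length and library size) in the 6 CD18wt libraries and at 131 to 257 TPM in the 6 CD18Foxp3 libraries, without overlap. Foxp3, the transcription factor that defines Treg, had 1365 to 5245 reads in every library. The share of reads in introns was lowest in replicate 3 of unstimulated CD18wt Treg (3.32%), which was also the shallowest library, and in replicate 2 of stimulated CD18wt Treg (3.66%). It was between 4.75% and 5.99% in the other 10 libraries. In bulk RNA, fewer cells expressing a gene and less RNA per cell cannot be told apart.

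Coordinates are those of the deposited gene tables, on mouse build GRCm38, and span the whole gene. Gzmb lies at chr14:56258838-56262260 on the minus strand, Prf1 at chr10:61297833-61304680 on the plus strand and Srgn at chr10:62493833-62527451 on the minus strand. Chromosome 13 holds Gzma (chr13:113093825-113100981, minus), Gzmk (chr13:113171608-113225908, minus), Serpinb9 (chr13:33003250-33017957, plus) and Serpinb6b (chr13:32965209-32979067, plus). Nkg7 lies at chr7:43437073-43438249 (plus), Lamp1 at chr8:13159161-13175338 (plus) and Ctsw at chr19:5465240-5468498 (minus). All but Ctsw had the same bounds in GENCODE M21. Of the exon reads of each gene, at least 95.9% (Lamp1) were placed uniquely, with 98.7% for Serpinb6b and 99.8% for Serpinb9, which have close paralogs. Some genes of the wider lists below had lower shares, among them Ctsd (55.7%), Sytl3 (65.9%) and Ctla2a (41.4%).

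Gzmb and Prf1, which moved in opposite directions on stimulation in both genotypes, are shown with the 250 bases before their RefSeq start sites (build GRCm38.p6, 5′ to 3′ on the gene's strand). Capitals mark matches to the letters of 2 motifs on either strand, TGANTCA (bound by AP-1 factors) and TGTGGT (bound by Runx factors). The window of Gzmb is chr14:56262335-56262584 on the minus strand and ends 74 bases upstream of the gene's deposited start, and that of Prf1 is chr10:61297586-61297835 on the plus strand.
Gzmb: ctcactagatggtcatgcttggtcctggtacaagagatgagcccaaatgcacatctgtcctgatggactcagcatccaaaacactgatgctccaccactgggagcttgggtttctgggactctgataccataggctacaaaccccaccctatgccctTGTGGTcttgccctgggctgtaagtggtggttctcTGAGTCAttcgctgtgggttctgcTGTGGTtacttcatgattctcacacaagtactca
Prf1: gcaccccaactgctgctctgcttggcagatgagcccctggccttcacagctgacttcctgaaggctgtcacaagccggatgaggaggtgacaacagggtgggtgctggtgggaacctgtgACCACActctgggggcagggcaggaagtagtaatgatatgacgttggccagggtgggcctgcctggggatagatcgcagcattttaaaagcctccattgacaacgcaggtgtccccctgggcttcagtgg
The AP-1 letters of Gzmb begin at base -58 from the start site and its Runx letters at bases -93 and -34, while Prf1 held a Runx match at base -130. The motif TTCNNNGAA (bound by STAT factors), had a match in Gzmb at base 37 after the start site. Windows of 300 bases, from 250 before to 50 after the start, were searched for 32851 RefSeq promoters, of which 7.81% held the AP-1 letters, 16.8% the Runx letters, 8.30% the STAT letters and 0.161% all 3, as the window of Gzmb did. The table held 10 windows for 9 of the granule genes, with 2 start sites for Srgn and no entry for Ctsw. Of these windows 1 held the AP-1 letters (Gzmb), 7 the Runx letters and 2 the STAT letters (Gzmb and Nkg7), and for Srgn the Runx letters were in the window inside the gene only. A match describes the letters only and does not show a bound site.

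Per transcript length, Srgn was the most abundant of the 10 in every group, and the granzymes and Prf1 were among the least abundant without stimulation. In unstimulated CD18wt Treg, Srgn reached 881 ± 71.8 TPM (SD, n = 3), followed by Lamp1 at 214 ± 15.2, Ctsw at 70.4 ± 22.5, Nkg7 at 57.5 ± 6.53, Serpinb6b at 35.5 ± 5.87, Serpinb9 at 21.4 ± 2.58 and Prf1 at 10.9 ± 3.14 TPM. Gzmb at 3.28 ± 0.243 TPM, Gzmk at 3.24 ± 4.17 TPM and Gzma at 0.512 ± 0.636 TPM closed the order. The libraries of Ctsw and Nkg7 overlapped, as did those of Gzmb, whose range lay inside that of Gzmk. In stimulated CD18Foxp3 Treg, Gzmb had moved to the second place with 210 ± 90.1 TPM, after Srgn at 1083 ± 167 and before Lamp1 at 185 ± 12.1 TPM, although its range of 145 to 313 TPM overlapped that of Lamp1. Serpinb9 (56.9 ± 7.95 TPM) and Serpinb6b (56.6 ± 11.6 TPM) were level there, and Prf1 (1.93 ± 0.885 TPM), Gzmk (0.537 ± 0.477 TPM) and Gzma (0.0647 ± 0.112 TPM) came last.

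**Figure D1:**
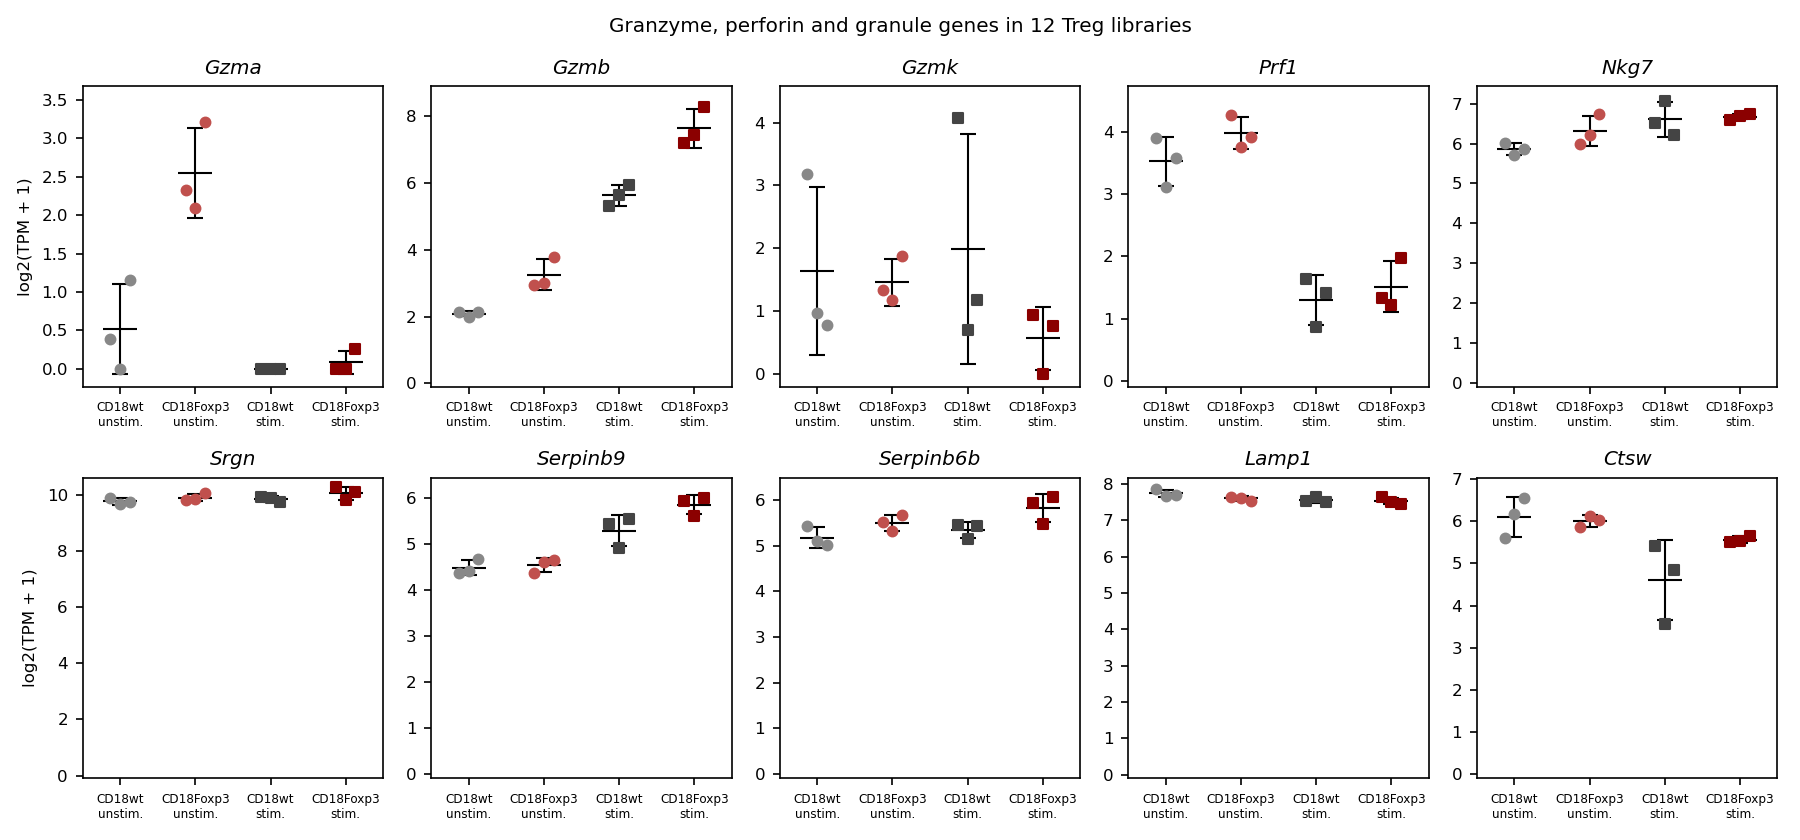
Each panel plots 1 gene as log2(TPM + 1) in the 12 libraries, by group, with each library as a point (circles, unstimulated; squares, stimulated), the horizontal line as the mean and bars as the SD of 3 libraries. Gzmb climbs from 3.28 TPM in unstimulated CD18wt to 210 TPM in stimulated CD18Foxp3 Treg, while Prf1 drops from 10.9 and 15.0 TPM to 1.52 and 1.93 TPM on stimulation.

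The first question was what anti-CD3 and anti-CD28 did to these genes in Treg with CD18. Gzmb rose and Prf1 fell in CD18wt Treg, so that the RNA of the protease and that of the pore protein that delivers it moved apart. A gene was called when its change reached 1.5-fold with an adjusted p no higher than 0.01, by edgeR's quasi-likelihood test on the exon counts with Benjamini-Hochberg adjustment over all genes tested. Of the 10 genes, 8 passed the filter on low counts, 1 rose (Gzmb) and 2 fell (Prf1 and Lamp1). Among all 11930 genes tested, 18.7% were called higher and 14.9% lower. The median log2 fold change was -0.28 for the 8 genes and 0.02 for all genes.

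Gzmb had 3.40, 2.996 and 3.43 TPM in the unstimulated and 38.5, 49.4 and 60.0 TPM in the stimulated CD18wt libraries. The groups did not overlap, and the log2 fold change was 3.52 (SE 0.27, adjusted p = 6.72e-07, edgeR's quasi-likelihood test), 11.4-fold. Prf1 had 14.0, 7.69 and 10.96 TPM before and 2.11, 0.809 and 1.65 TPM after stimulation, with every stimulated library below every unstimulated library. Its log2 fold change was -3.27 (SE 0.39, adjusted p = 1.98e-05, edgeR's quasi-likelihood test), a 9.67-fold drop, from 478 reads over 3 libraries to 55. Both calls held in each of the 6 fits that left out 1 library.

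Lamp1, a membrane protein of granules and of lysosomes in general, lay at 231, 204 and 206 TPM in the unstimulated and at 183, 197 and 180 TPM in the stimulated CD18wt libraries. The groups were close but did not overlap, and its log2 fold change of -0.59 (SE 0.13, adjusted p = 0.00257, edgeR's quasi-likelihood test) was only just past the fold threshold. Its call held in 2 of 6 fits that left out 1 library, and on the TPM scale the difference was -0.19 (adjusted p = 0.237, limma). Ctsw had 47.5, 71.3 and 92.5 TPM before and 41.5, 10.7 and 27.7 TPM after stimulation, without overlap. Its log2 fold change of -1.85 (SE 0.47, adjusted p = 0.0145, edgeR's quasi-likelihood test) missed the threshold, and was past it in DESeq2 (adjusted p = 3.21e-07). The lowest Ctsw value was that of replicate 2, the stimulated library with the low share of intron reads; without it the log2 fold change was -1.52 (adjusted p = 0.00341, edgeR). Of the 6 fits that left out 1 library, 2 were past the threshold, with log2 fold changes from -2.31 to -1.52 and adjusted p from 0.00235 to 0.0613 (edgeR).

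The remaining genes tested in CD18wt Treg did not pass. Serpinb9, the inhibitor of granzyme B, stood at 19.5, 20.3 and 24.3 TPM before and 42.0, 29.1 and 45.1 TPM after stimulation, with a log2 fold change of 0.44 (adjusted p = 0.0531, edgeR's quasi-likelihood test). Nkg7 moved from 64.2, 51.1 and 57.1 TPM to 91.1, 134 and 73.6 TPM, a log2 fold change of 0.42 (adjusted p = 0.183, edgeR). In TPM neither gene's groups overlapped, and both lay higher in all 3 stimulated libraries. Srgn and Serpinb6b had log2 fold changes of -0.32 and -0.24 on the count scale and of 0.08 and 0.17 on the TPM scale, so their sign depended on the scaling. Gzma had 2, 0 and 5 reads in the unstimulated libraries and none in the 3 stimulated libraries, where a count of 0 allows up to 3 reads, and Gzmk was too low for the filter.

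The scaling mattered because the TPM of most genes shifted on stimulation. On the log2(TPM + 1) scale the median log2 fold change of all genes was 0.36 in CD18wt and 0.31 in CD18Foxp3 Treg, against 0.02 and 0.01 with the scaling used for the counts. Of the calls in CD18wt Treg, 2234 of 4013 were higher on the count scale and 3465 of 4252 on the TPM scale; in CD18Foxp3 Treg these were 2516 of 4636 and 3760 of 4950. Gzmb and Prf1 kept their directions and calls in both genotypes on either scale.

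In CD18Foxp3 Treg the same stimulation was followed by a rise of Gzmb and Serpinb9 and a fall of Prf1, Gzma and Ctsw. All 10 genes were tested, of which 2 rose and 3 fell, while 20.9% of all 12019 genes tested were called higher and 17.6% lower. Gzma passed the filter on low counts only through its unstimulated libraries, and so did Gzmk, so that only a fall could be found for them. In CD18wt Treg both were too low for the filter. The median log2 fold change was -0.31 for the 10 genes and 0.01 for all genes.

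Gzmb had 6.73, 7.13 and 12.8 TPM in the unstimulated and 145, 172 and 313 TPM in the stimulated CD18Foxp3 libraries. The highest value was in replicate 3 in both cultures, and the groups lay far apart, with a log2 fold change of 4.20 (SE 0.35, adjusted p = 1.43e-05, edgeR's quasi-likelihood test), 18.4-fold. Prf1 dropped from 18.3, 12.6 and 14.1 TPM to 1.53, 1.32 and 2.95 TPM. Its log2 fold change of -3.33 (SE 0.32, adjusted p = 3.44e-05, edgeR's quasi-likelihood test), a 10.1-fold drop, stood beside that of -3.27 in CD18wt Treg.

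Gzma, a granzyme of tryptase-like specificity, had 29, 19 and 52 reads in the unstimulated CD18Foxp3 libraries and 0, 0 and 1 in the stimulated libraries. Scaled to library size, 100 reads against 1 gave a ratio of 101 with an exact 95% interval of 17.8 to 4042, which covers counting error only. The fitted log2 fold change of -6.34 (SE 0.89, adjusted p = 2.85e-04, edgeR's quasi-likelihood test) depends on how a count near 0 is treated, and was -8.17 without replicate 3 of stimulated CD18Foxp3 Treg, the library with the remaining read. Gzmk had 15, 10 and 23 reads before and 8, 0 and 5 after stimulation, with no overlap, and a log2 fold change of -2.05 (adjusted p = 0.0535, edgeR) that did not pass. It ran from -2.73 to -1.48 when 1 library was left out, with adjusted p from 0.0323 to 0.180 (edgeR).

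Serpinb9 rose from 19.7, 23.3 and 24.0 TPM to 60.2, 47.9 and 62.8 TPM, with every stimulated library at least at 47.9 TPM. The log2 fold change was 0.99 (SE 0.15, adjusted p = 4.19e-04, edgeR's quasi-likelihood test), 1.99-fold, and was past the threshold in all 6 fits without 1 library. Ctsw fell from 57.1, 69.1 and 64.1 TPM to 44.6, 45.1 and 49.4 TPM, by 0.82 on the log2 scale (SE 0.14, adjusted p = 0.00103, edgeR's quasi-likelihood test). On the TPM scale the difference for Ctsw was -0.44 (adjusted p = 0.0157, limma) and did not pass. Lamp1 had a log2 fold change of -0.43 (adjusted p = 0.00883, edgeR), which was under the fold threshold. Srgn, Nkg7 and Serpinb6b had log2 fold changes of -0.20, -0.03 and -0.01, each with the opposite sign on the TPM scale (0.16, 0.36 and 0.33).

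**Figure D2:**
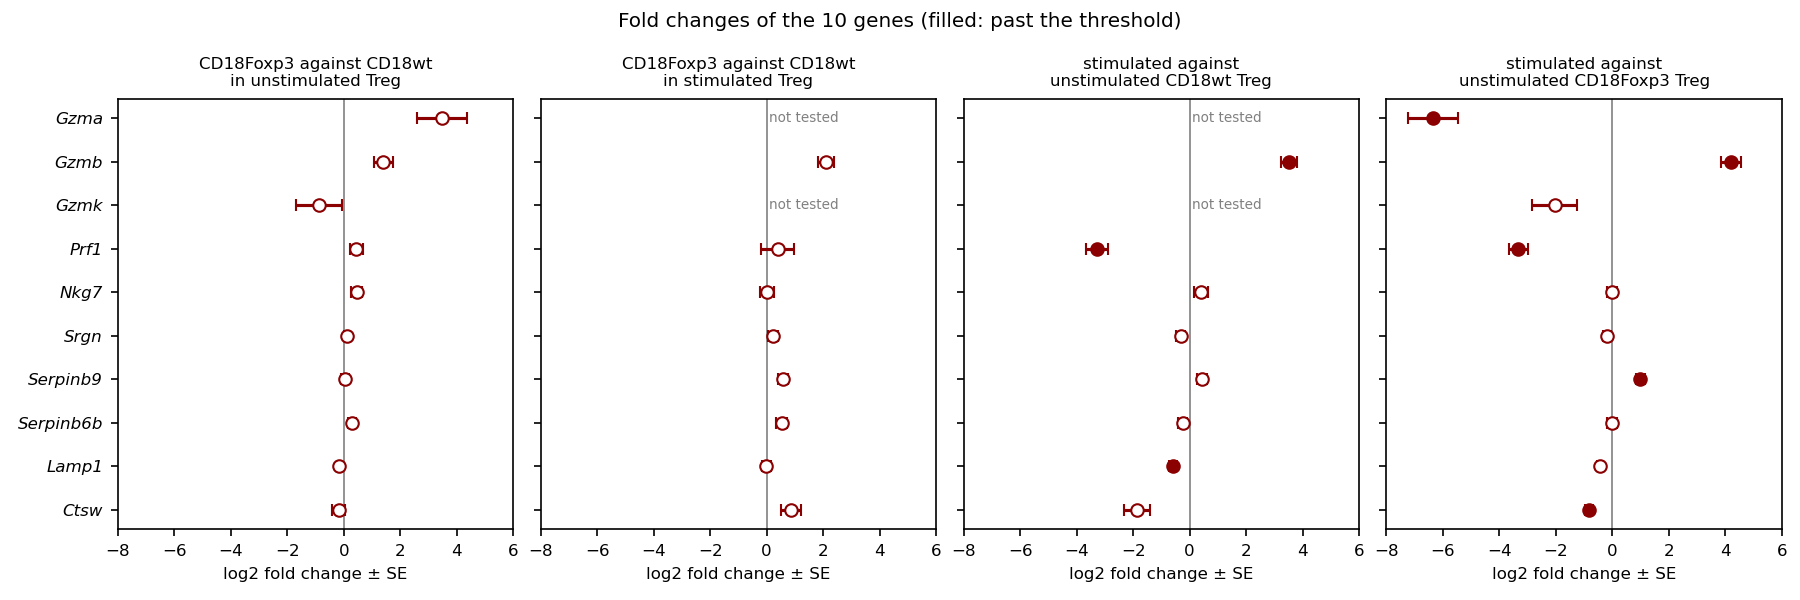
The log2 fold changes of the 10 genes with their SE in the 4 comparisons between groups, from edgeR's quasi-likelihood fits on exon counts of 6 libraries each (filled points, called at 1.5-fold and an adjusted p no higher than 0.01). Filled points appear only in the panels on stimulation, with Gzmb at 3.52 and 4.20 and Prf1 at -3.27 and -3.33, and the widest open differences between genotypes are those of Gzma (3.48) and Gzmb (1.40 and 2.10).

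The next question was whether CD18Foxp3 Treg differed from CD18wt Treg before stimulation. Gzma and Gzmb were higher in all 3 CD18Foxp3 libraries than in any CD18wt library, but neither passed the threshold. All 10 genes were tested and 0 passed in edgeR's quasi-likelihood test, where 0.135% of the 11829 genes tested were called (16 genes). At an unadjusted p under 0.05 there were 4 of the 10 and 1134 of all genes, DESeq2 called 1 of the 10 (Gzma) and 86 of all genes, and limma on TPM called 0 of the 10 and 1 of all genes. In TPM, 2 of the 10 were higher in every CD18Foxp3 library, against 8.74% of all genes tested, and 1 (Lamp1) was lower in every one, against 6.9%. Gzma, 1 of those 2, passed the filter on low counts only through its CD18Foxp3 libraries. Since the 10 were chosen with earlier results of these data known, such counts describe them and do not test them. The median log2 fold change was 0.20 for the 10 genes and -0.0044 for all genes.

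Gzma had 0.313, 0 and 1.22 TPM in CD18wt and 4.04, 3.28 and 8.31 TPM in CD18Foxp3 libraries without stimulation. These rested on 7 against 100 reads over 3 libraries, and only the CD18Foxp3 libraries brought Gzma past the filter on low counts. The log2 fold change was 3.48 (SE 0.87, adjusted p = 0.142, edgeR's quasi-likelihood test). It became 2.78 without replicate 2 and 4.93 without replicate 3 of unstimulated CD18wt Treg, and the adjusted p ran from 0.0181 to 0.653 when 1 library was left out (edgeR). DESeq2 gave the same gene an adjusted p of 0.00911, and edgeR without the filter on low counts 0.00145. Gzmb had 3.40, 2.996 and 3.43 TPM in CD18wt and 6.73, 7.13 and 12.8 TPM in CD18Foxp3 libraries. Its log2 fold change was 1.40 (SE 0.35, adjusted p = 0.140, edgeR's quasi-likelihood test), 2.65-fold, with an adjusted p of 0.0236 in DESeq2, and an exact two-sided permutation test gave p = 0.1, the smallest that 3 against 3 libraries allow.

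The other granule genes differed less between genotypes without stimulation. Prf1 lay at 14.0, 7.69 and 10.96 TPM in CD18wt and 18.3, 12.6 and 14.1 TPM in CD18Foxp3 libraries, which overlapped, with a log2 fold change of 0.45 (SE 0.23, adjusted p = 0.591, edgeR's quasi-likelihood test). Nkg7 had 62.6, 73.5 and 105 TPM in CD18Foxp3 libraries against 51.1 to 64.2 in CD18wt libraries, also overlapping, and a log2 fold change of 0.45 (SE 0.18). For Serpinb6b, Srgn, Serpinb9, Lamp1 and Ctsw the log2 fold changes were 0.30, 0.11, 0.04, -0.17 and -0.18. Gzmk had 71, 9 and 4 reads in the CD18wt libraries, so that replicate 1 held most of them, and its log2 fold change of -0.88 became 1.04 without that library.

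In stimulated Treg, Gzmb had the widest difference between genotypes among the 8 genes tested. Its 3 CD18Foxp3 libraries, at 145, 172 and 313 TPM, all lay above the 38.5, 49.4 and 60.0 TPM of the CD18wt libraries. The log2 fold change was 2.10 (SE 0.28), 4.28-fold, and its p of 1.46e-05 was the smallest of all genes, yet the adjusted p was 0.174 (edgeR's quasi-likelihood test). The call depended on the test. DESeq2 gave an adjusted p of 1.28e-10, edgeR without the filter on low counts 3.55e-23, edgeR with all 12 libraries 0.0328, edgeR on uniquely placed reads 0.0519, and limma on log2(TPM + 1) 0.421, while the log2 fold change stayed between 2.01 and 2.10 in these fits. Without 1 library at a time it ran from 1.69 (without replicate 3 of CD18Foxp3) to 2.29, and the adjusted p from 0.0177 to 0.993 (edgeR).

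Over all of them, 8 of the 10 genes were tested and 0 passed in edgeR's quasi-likelihood test, as did 0 of all 11930 genes tested, which is 0%. At an unadjusted p under 0.05 were 4 of the 8 and 583 of all genes, and DESeq2 called 1 of the 8 (Gzmb) and 22 of all genes. In TPM, 4 genes (Gzmb, Serpinb9, Serpinb6b and Ctsw) were higher in every CD18Foxp3 library, against 5.02% of all genes tested, and 0 were lower in every one, against 4.41%. As the genes were chosen with earlier results of these data known, these counts are no test of them as a group. The median log2 fold change was 0.46 for the 8 genes and -0.0029 for all genes.

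Both granzyme inhibitors were among those 4. Serpinb9 had 42.0, 29.1 and 45.1 TPM in CD18wt and 60.2, 47.9 and 62.8 TPM in CD18Foxp3 libraries, a log2 fold change of 0.58 (SE 0.18, adjusted p = 0.800, edgeR's quasi-likelihood test). Serpinb6b had 42.8, 34.5 and 42.4 TPM against 60.6, 43.6 and 65.7 TPM, a log2 fold change of 0.53 (SE 0.19, adjusted p = 0.913, edgeR's quasi-likelihood test). For these genes the groups stood next to each other, with the lowest CD18Foxp3 library within 3 TPM of the highest CD18wt library. Ctsw, at 41.5, 10.7 and 27.7 TPM against 44.6, 45.1 and 49.4 TPM, had a log2 fold change of 0.85 (SE 0.36), which was 0.49 without replicate 2 of stimulated CD18wt Treg. Prf1 (0.38, SE 0.57), Srgn (0.23), Nkg7 (0.01) and Lamp1 (-0.01) overlapped between genotypes. Gzma and Gzmk were not tested here, with 0 to 1 and 0 to 85 reads per library, and 85 of the Gzmk reads came from replicate 1 of CD18wt Treg.

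Whether the response to stimulation itself differed between genotypes was tested as an interaction over all 12 libraries. Of the 10 genes 0 passed in edgeR's quasi-likelihood test, as did 0 of all 12636 genes tested (0%). At an unadjusted p under 0.05 were 1 of the 10 and 485 of all genes, while DESeq2 called 0 of the 10 and 1 of all genes. The gene among the 10 was Serpinb9, whose log2 fold change on stimulation was 0.54 greater in CD18Foxp3 Treg (SE 0.23, adjusted p = 0.987 in edgeR). For Gzmb the difference was 0.68 (SE 0.46), for Ctsw 1.03 (SE 0.48) and for Prf1 -0.06 (SE 0.53).

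Gzmb was also set against Prf1 within each library. Since these genes moved apart on stimulation, the rise of their ratio restates both changes and is no further test. Prf1 had only 12 to 39 reads per stimulated library, and the difference in the ratio between stimulated genotypes restates that of Gzmb. The ratio of their TPM was 0.244, 0.389 and 0.313 in unstimulated CD18wt and 0.367, 0.565 and 0.904 in unstimulated CD18Foxp3 Treg, so every unstimulated library held more Prf1 than Gzmb. After stimulation it was 18.3, 61.0 and 36.3 in CD18wt and 95.01, 130 and 106 in CD18Foxp3 Treg. The stimulated CD18Foxp3 libraries all lay above the stimulated CD18wt libraries, 3.18-fold on the mean of log2 ratios, with p = 0.1 in an exact two-sided permutation test, the smallest that 3 against 3 libraries allow. Without stimulation the genotypes overlapped (1.85-fold, exact permutation p = 0.2).

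**Figure D3:**
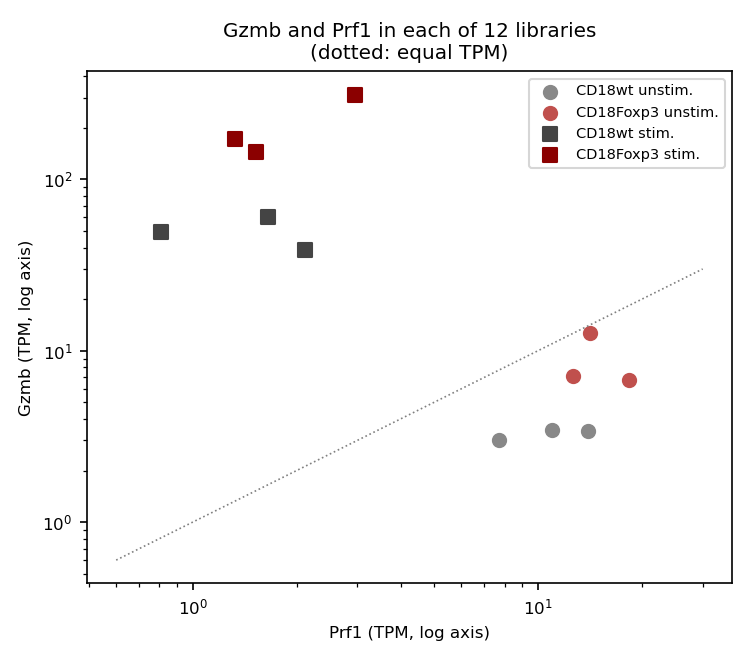
TPM of Gzmb against TPM of Prf1 in each of the 12 libraries, on log axes, with colour and shape for the group and a dotted line at equal TPM. The 6 unstimulated libraries lie below the line (ratios of 0.244 to 0.904) and the 6 stimulated libraries above it (18.3 to 130), with the stimulated CD18Foxp3 libraries highest. Prf1 had 12 to 39 reads per stimulated library.

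Other granzymes were low. Of 7 further granzyme genes, Gzmm (1.06 to 2.999 TPM) and Gzmc (0 to 3.96 TPM) were the most abundant, Gzmf had 0 to 0.344 TPM, and the only gene tested in the stimulation comparisons, Gzmm, did not pass (log2 fold change -0.69 in CD18wt and -0.03 in CD18Foxp3 Treg).

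On the count scale, the genes of a further list of processing enzymes and inhibitors, which leaves out Serpinb9 and Serpinb6b, fell or did not pass. Of 10 tested in a list of 12, 0 rose and 5 fell in CD18wt Treg, and 0 rose and 4 fell in CD18Foxp3 Treg, with median log2 fold changes of -0.65 and -0.60. Over all genes tested, 18.7% rose and 14.9% fell in CD18wt and 20.9% and 17.6% in CD18Foxp3 Treg, the shares against which the count-scale calls of each list stand. Ctsd, the lysosomal aspartic protease cathepsin D, lay at 363 to 488 TPM in the 6 unstimulated and 205 to 322 TPM in the 6 stimulated libraries, and fell by 1.06 and 1.12 on the log2 scale. Ctsb, cathepsin B, fell by 0.66 and 0.68. Cst7, which encodes cystatin F, an inhibitor of the cathepsins that activate granzymes, fell by 0.85 in CD18wt Treg and had a log2 fold change of -0.34 in CD18Foxp3 Treg that did not pass. Serpinb1a, an inhibitor of neutrophil-type serine proteases, was at 0.962 to 2.07 TPM without and 0 to 0.274 TPM with stimulation. It passed the filter on low counts only through its unstimulated libraries. On the TPM scale 3465 of all 11930 genes were called higher and 787 lower in CD18wt Treg, and 3760 and 1190 of 12019 in CD18Foxp3 Treg. The calls of this list there were 0 higher and 1 lower in CD18wt and 1 higher (Ctsc) and 2 lower in CD18Foxp3 Treg, though every gene called on counts kept its sign. The calls lost there included those of Ctsb in both genotypes and of Ctsd and Cst7 in CD18wt Treg.

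Of the machinery that carries granules to the membrane, 14 genes were tested, of which 2 rose and 3 fell in CD18wt Treg, and 3 rose and 4 fell in CD18Foxp3 Treg. These counts lie near the count-scale shares of all genes called higher (18.7% and 20.9%) and lower (14.9% and 17.6%). On the TPM scale they were 3 higher and 1 lower in CD18wt Treg, where the calls of Rab27a and Lyst were lost, and 3 higher and 3 lower in CD18Foxp3 Treg. Over all genes on that scale, 3465 of 11930 were called higher and 787 lower in CD18wt Treg. In CD18Foxp3 Treg these were 3760 and 1190 of 12019. Sytl3 and Sytl2 encode synaptotagmin-like proteins that bind the small GTPase RAB27A, which docks granules. Sytl3 rose from 0.194 to 1.06 TPM in unstimulated to 3.17 to 7.89 TPM in stimulated libraries (log2 fold changes of 2.34 and 3.21), Sytl2 fell by 1.97 and 1.99, and Rab27a fell by 0.87 and 1.22 on the count scale. The most abundant of the list, Rab7, a GTPase of late endosomes, had log2 fold changes of -0.12 and -0.19, and Vamp8, a vesicle SNARE, of -0.65 and -0.58; neither passed in either genotype. Of a list of lysosomal and granule-associated genes, 7 were tested, of which 0 rose and 1 fell in CD18wt and 1 rose and 1 fell in CD18Foxp3 Treg. On the TPM scale 0 rose and 1 fell in CD18wt, beside 3465 and 787 of all 11930 genes. In CD18Foxp3 Treg 3 rose and 1 fell there, with Lamp2 and Cd68 gained, beside 3760 and 1190 of all 12019 genes. Laptm5, a lysosomal membrane protein of blood cells, fell by 1.24 and 1.37, Ctla2a, which encodes an inhibitor of cysteine proteases, rose in CD18Foxp3 Treg (1.73) and had a log2 fold change of 1.25 in CD18wt Treg that did not pass (adjusted p = 0.0135, edgeR), and Tmem192 did not pass (-0.49 and -0.31).

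Of the transcription factors of cytotoxic lymphocytes, those called rose with 1 exception, while several that did not pass had negative log2 fold changes. Of 12 tested, 6 rose and 0 fell in CD18wt Treg, and 6 rose and 1 fell (Stat5b, by 0.64) in CD18Foxp3 Treg, with 6 higher and 0 lower in each genotype on the TPM scale, where the call of Stat5b was lost. Over all genes tested, 18.7% and 20.9% were called higher and 14.9% and 17.6% lower on the count scale. On the TPM scale, 3465 of all 11930 genes were called higher and 787 lower in CD18wt Treg. In CD18Foxp3 Treg these were 3760 and 1190 of 12019 genes. Irf4, a factor induced by T cell receptor signals, went from 19.1 to 30.6 TPM in the unstimulated to 337 to 568 TPM in the stimulated libraries (log2 fold changes of 3.67 and 3.94). Tbx21, which encodes T-bet, rose by 2.01 and 1.96, and Zeb2 rose by 2.59 and 2.67, with 0.0521 to 0.316 TPM in the unstimulated and 0.961 to 1.69 TPM in the stimulated libraries. Batf, a partner of IRF4 on DNA, did not pass (-0.46 and -0.11). Neither did Eomes (-1.28 and -1.05, adjusted p = 0.0200 and 0.0478, edgeR), Runx3 (-0.35 and -0.36), Bhlhe40 (-0.00085 and -0.56) and Id2 (-0.24 and 0.03). Of these 5 wider lists, 0 genes passed in either comparison between genotypes (edgeR's quasi-likelihood test). Over all genes, 0.135% of 11829 passed without and 0% of 11930 with stimulation. Rab27a came close to both thresholds between unstimulated genotypes, 1.49-fold higher in CD18Foxp3 Treg (log2 fold change 0.57, SE 0.09, adjusted p = 0.0195, edgeR's quasi-likelihood test).

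**Figure D4:**
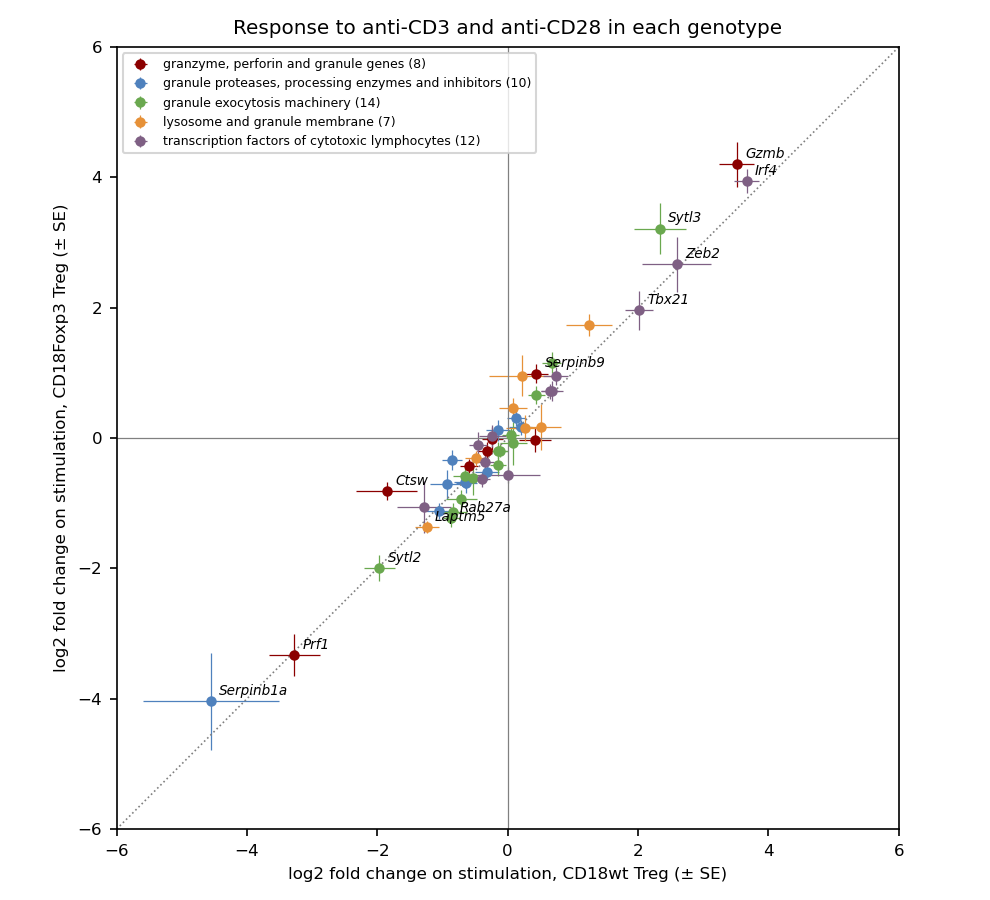
The log2 fold change on stimulation in CD18wt Treg (horizontal) against that in CD18Foxp3 Treg (vertical), each with its SE, for the granule genes tested in both genotypes and for 4 wider lists, with a dotted line at equal change. Gzmb (3.52 and 4.20) and Irf4 (3.67 and 3.94) lie far to the upper right and Prf1 (-3.27 and -3.33) to the lower left, while Sytl3 (2.34 and 3.21) and Ctsw (-1.85 and -0.82) stand off the line.

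Since natural killer (NK) and CD8+ T cells express the same granule genes at high levels, their markers were read beside them. Among 11 NK cell markers, Ncr1, Klra4, Klra7, Klra8 and Klra9 had 0 reads in all 12 libraries. The summed level of the 11 was 23.5 to 29.6 TPM in the unstimulated and 8.12 to 12.9 TPM in the stimulated libraries, and in each genotype 3 of 4 tested fell (Klrb1c, Cd160 and Txk, of which Txk and Cd160 are also expressed by T cells), against 14.9% and 17.6% of all genes tested. On the TPM scale the call of Cd160 in CD18Foxp3 Treg was lost. Klrb1c had 27 to 83 reads without and 0 to 4 with stimulation, moving with Prf1 and Gzma, and passed the filter on low counts only through its unstimulated libraries. Of the CD8 markers, Cd8a had 0 to 17 and Cd8b1 97 to 297 reads, and Cd8b1 fell on stimulation in both genotypes on the count scale (log2 fold changes of -1.09 and -0.76) but was not called in either on the TPM scale. Of 4 mast cell and basophil genes, Mcpt8, Ms4a2 and Fcer1a had 0 reads in every library and Cpa3 had 0 to 7. Markers of B cells summed to 22.7 to 30.5 TPM without and 9.03 to 19.9 TPM with stimulation, and those of myeloid cells to 1.94 to 15.8 and 0.483 to 2.45 TPM. The part of such cells in the fall of Prf1, Gzma and Ctsw was not tested. Between genotypes, the summed NK markers were 28.7 to 29.6 TPM in unstimulated CD18wt and 23.5 to 27.3 TPM in unstimulated CD18Foxp3 Treg. Txk and Cd160, which T cells also express, reached 13.1 TPM each and Klrb1c 5.32 TPM, so this sum does not track NK cells alone. The 4 tested differed in direction, with log2 fold changes of 0.15 for Txk, -0.46 for Cd160, -1.01 for Klrb1c and -0.35 for Gzmm, and none passed. With stimulation the summed NK markers were 8.12 to 12.4 TPM in CD18wt and 12.1 to 12.9 TPM in CD18Foxp3 Treg, and these ranges overlapped. The CD8 markers summed to 21.3 to 30.4 TPM in unstimulated CD18wt and 23.7 to 30.3 TPM in unstimulated CD18Foxp3 Treg, and to 12.6 to 18.2 and 16.8 to 25.8 TPM with stimulation, where the ranges overlapped and the order was that of Gzmb. The part of such cells in the differences between genotypes was not tested. The markers of Treg themselves (Foxp3, Il2ra, Ikzf2, Ctla4, Cd4 and Cd3e) summed to 1336 to 1662 TPM in unstimulated CD18wt and 1487 to 1501 TPM in unstimulated CD18Foxp3 Treg, and to 2214 to 2925 and 2900 to 3678 TPM with stimulation. On stimulation 1 rose (Il2ra) and 2 fell (Cd4 and Cd3e) in CD18wt Treg, and 3 rose (Il2ra, Ctla4 and Ikzf2) and 2 fell (Cd4 and Cd3e) in CD18Foxp3 Treg. On the TPM scale 2 rose and 1 fell in CD18wt Treg, where Ikzf2 was gained. In CD18Foxp3 Treg 4 rose and 1 fell on that scale, with Foxp3 gained. Cd4 had log2 fold changes of -1.15 and -1.25 and Cd3e, a chain of the T cell receptor complex, of -0.87 and -0.92, in the same direction as Prf1 and Ctsw, and the calls of Cd3e were lost on the TPM scale in both genotypes. Between stimulated genotypes Ctla4, Il2ra and Ikzf2 had log2 fold changes of 0.71, 0.50 and 0.46 (adjusted p = 0.856, 0.813 and 0.910, edgeR), in the same direction as Gzmb. Foxp3, Cd3e and Cd4 had 0.26, 0.02 and -0.18 there. Between unstimulated genotypes Ctla4, Il2ra and Ikzf2 had -0.21, -0.36 and -0.09, the opposite direction to Gzmb, and Foxp3, Cd3e and Cd4 had 0.10, 0.07 and -0.07. None of the Treg markers passed in either comparison between genotypes. The part of these changes in the results for the granule genes was not tested.

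The profile over the 12 libraries was compared with that of 12635 other genes, by the root mean square difference in log2 CPM (counts scaled to library size) after each gene was set to a mean of 0. Nearest to Gzmb, whose own SD was 2.10, were Mreg at 0.54, Mtfr2 at 0.61 and Hmmr at 0.61. Among the genes near to Prf1, with an SD of 1.67, were Osgin1 at 0.39 and Sema4a at 0.40. Gzma (SD 1.72) had Plac8 at 0.79 as its nearest gene, and Gzmk (SD 1.49) had none nearer than Gm31812 at 0.95. Nearest to Srgn (SD 0.21) was Rfk at 0.08 and to Lamp1 (SD 0.28) Ddx6 at 0.08. Nearest to Ctsw was Abat at 0.36, to Serpinb9 Mllt11 at 0.18, to Serpinb6b Picalm at 0.14 and to Nkg7 Chid1 at 0.20.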

How the data were processed

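RNA of sorted splenic Treg was sequenced from poly(A) libraries made from 10 ng total RNA with 15 PCR cycles, as single reads of 59 bases. The authors aligned reads to GRCm38 and deposited a CLC Genomics Workbench table per library, with exon read counts (whole numbers, not normalized) and TPM values as other measures, which sum to the same total in every library. Counts were tested with edgeR 4.0.16 (quasi-likelihood, robust, TMM scaling, filterByExpr with a minimum count of 10, Benjamini-Hochberg adjustment over all genes tested), with 6 libraries per comparison and 12 for the interaction, called at 1.5-fold with an adjusted p no higher than 0.01. SE is the log2 fold change over the root of F. Alternatives used DESeq2 1.42.0, limma 3.58.1 on TPM in log2 with a pseudocount of 1 or 0.1, no filter, uniquely placed reads, a replicate block, all 12 libraries, an adjusted p of 0.05 and leaving out each library. The scripts were tested on simulated data. The 10 genes and all gene lists were chosen with earlier results of these data known. Of each wider list, the text names the 3 genes with the highest mean TPM and the 3 with the largest called fold change on stimulation; other names were chosen after their values were seen. Vamp7 was not analysed here. Of the genes with profiles near to Prf1, 1 is not reported here. Intervals and counts near 0 cover counting error only, since reads carried no molecular identifiers.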

Additional observations from a re-analysis of the deposited data

How the results depend on the processing

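On stimulation the calls of Gzmb and Prf1 held in both genotypes under every alternative run, and so did that of Serpinb9 in CD18Foxp3 Treg. Gzma was also called lower there in each, but it passed the filter on low counts only through its unstimulated libraries. In the fits that used the filter its direction was thus fixed in advance. Between genotypes, the number of the 10 genes called without stimulation was 0 in edgeR and 1 in DESeq2 and in edgeR without the filter, and with stimulation it was 0 in edgeR, 1 in DESeq2, 2 without the filter and 1 with the replicate block (Gzmb, log2 fold change 2.04, adjusted p = 0.00388 in edgeR). Over all genes, the 16 called between unstimulated genotypes became 86 in DESeq2, 134 without the filter, 1 in limma with either pseudocount, 41 with the replicate block, 0 with all 12 libraries and 33 at an adjusted p of 0.05, and 0 to 44 when 1 library was left out (44 without replicate 3 of CD18wt, 0 without replicate 2 of CD18wt or replicates 1 or 2 of CD18Foxp3, 1 without replicate 3 of CD18Foxp3 and 2 without replicate 1 of CD18wt). The 0 called between stimulated genotypes became 22 in DESeq2, 61 without the filter, 1 in limma with log2(TPM + 0.1), 1 with the replicate block, and 0 to 2 when 1 library was left out (2 without replicate 3 of CD18wt). The 0 of the interaction became 1 in DESeq2, 31 without the filter and 1 in limma with either pseudocount. Same-numbered libraries deviated together by correlations of -0.09 to 0.15 between cultures and -0.13 to 0.08 between genotypes, so the numbers were not taken as pairs. Between cultures these were 0.14, 0.07 and 0.15 in CD18Foxp3 Treg and 0.10, -0.02 and -0.09 in CD18wt Treg. For each unstimulated CD18Foxp3 library the stimulated library of the same number had the highest correlation, and in CD18wt Treg this held for replicate 1 only. Whether same-numbered libraries share a mouse is not known. The replicate block moved no other member's call.

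On the TPM scale with pseudocounts of 1 and 0.1, the log2 fold changes on stimulation were 0.0795 and 0.0796 for Srgn and 0.17 and 0.17 for Serpinb6b in CD18wt Treg, and 0.36 and 0.37 for Nkg7, 0.16 and 0.16 for Srgn and 0.33 and 0.33 for Serpinb6b in CD18Foxp3 Treg. With the replicate block Nkg7 was at 0.0016 there, and without the filter Serpinb6b was at 0.00050 there and Lamp1 at 0.0020 between stimulated genotypes. Leaving out 1 library gave ranges through 0 between unstimulated genotypes of -1.32 to 1.04 for Gzmk, -0.036 to 0.18 for Serpinb9 and -0.41 to 0.10 for Ctsw, and between stimulated genotypes of -0.052 to 0.67 for Prf1, -0.20 to 0.37 for Nkg7 and -0.079 to 0.10 for Lamp1. On stimulation of CD18Foxp3 Treg they were -0.18 to 0.19 for Nkg7 and -0.14 to 0.16 for Serpinb6b, and in the interaction -4.38 to 0.11 for Gzmk, -0.49 to 0.21 for Prf1 and -0.0054 to 0.24 for Srgn. The cause was not tested. Gzma and Gzmk rested on few reads, at most 52 and 85 in any library.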

Other observations

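The share of Srgn reads that fell in introns differed between cultures while its exon level did not pass. It was 3.23% to 8.76% in the 6 unstimulated libraries, lowest in replicate 3 of CD18wt Treg, and 1.30% to 2.05% in the 6 stimulated libraries, without overlap. Srgn had 258 to 1283 intron reads per unstimulated and 120 to 268 per stimulated library.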
